A study of Mus musculus with 6 samples.

Results

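The genes described here encode the conjugating enzymes and carboxylesterases of the mouse small intestinal epithelium. They were taken by symbol: cytosolic, mitochondrial and other soluble glutathione S-transferases (Gsta, Gstk, Gstm, Gsto, Gstp, Gstt and Gstz, here GST), microsomal glutathione S-transferases (Mgst, here MGST), UDP-glucuronosyltransferases of families 1 to 3 (Ugt, here UGT), sulfotransferases of families 1 to 6 (Sult, here SULT) and the carboxylesterases Ces1 and Ces2 (here CES), without pseudogenes. Of 46078 gene IDs in the count table, 81 matched, with 79 different symbols: 23 GST, 3 MGST, 21 UGT, 19 SULT and 15 CES IDs. Levels did not enter the choice of genes.

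The RNA came from freshly isolated, untreated epithelial cells of C57BL/6JRj mice, a wild-type inbred strain, sorted for the epithelial surface protein EpCam and against CD45, the surface protein of leukocytes. Libraries from 3 aged animals (20 to 22 months) were compared with 3 from young animals (2 to 3 months). According to the design text the tissue was proximal small intestine, and the labels give neither sex nor replicate numbers. The sample records do not say that each library is a separate mouse. The 3 aged and 3 young mice named in the design were taken as 1 library each, and otherwise the p-values measure only the spread between libraries. The cells are a mixture of all epithelial types, and in such bulk RNA fewer cells of a type and less RNA per cell cannot be told apart.

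Conjugating enzymes make reactive or fat-soluble compounds more water-soluble by attaching a polar group. Glutathione S-transferases attach glutathione to electrophiles. UDP-glucuronosyltransferases attach glucuronic acid, and sulfotransferases attach a sulfonate group taken from the donor PAPS. Carboxylesterases of the endoplasmic reticulum cut ester bonds in drugs and lipids. The absorptive cells of the small intestine carry all of these activities and meet swallowed compounds before the liver does.

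Total counts ran from 41479573 to 58989166 per library, of which the 81 IDs together took 0.300 to 0.438%. Levels are given in CPM, which are counts divided by each library's total after TMM scaling, and a count of 0 allowed a level of up to 0.0507 to 0.0720 CPM, at 3 counts per library and for counting error only. Epcam stood at 1501 to 1523 CPM in aged and 1634 to 1668 CPM in young libraries, and Ptprc, which encodes CD45, at 0.196 to 0.274 CPM in aged and 0.168 to 0.287 CPM in young libraries. Of 14923 genes tested over all 6 libraries, edgeR's quasi-likelihood test called 93 higher and 117 lower in aged libraries at a Benjamini-Hochberg adjusted p below 0.05. The median log2 fold change of all tested genes, aged over young, was 0.01. Of 12 interferon-gamma response genes listed as markers, 8 rose in aged libraries. Their summed level was 3741, 4567 and 1279 CPM in aged libraries 1, 2 and 3, against 150, 265 and 196 CPM in young libraries 1, 2 and 3, so that aged library 3 stood lowest of the aged. Values below are in this order of libraries throughout.

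At least 10 counts in at least 3 libraries were found for 51 of the 81 IDs, which are called detected here. They were 20 GST, 3 MGST, 9 UGT, 6 SULT and 13 CES genes. The filter of the test kept the same 51 genes. No count in any library was found for 18 IDs: second IDs of Gstp1 and Gstp2, the UGT genes Ugt2a1, Ugt2a2, Ugt3a1 and Ugt3a2, and 12 SULT genes. The SULT genes without a count were Sult1c1, Sult1e1, Sult3a1, Sult5a1 and all 8 genes of the Sult2a group, whose enzymes sulfate bile acids and steroids in liver. Ugt2a1 and Ugt2a2 share nearly all of their exons, with 30 and 140 bases of their own, so where shared reads were dropped their counts of 0 rest on those bases alone. The other 12 IDs had between 2 and 49 counts summed over the 6 libraries. Among these, Ugt2b38 had 49 counts, of which 21 were in aged library 1.

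**Figure D1:**
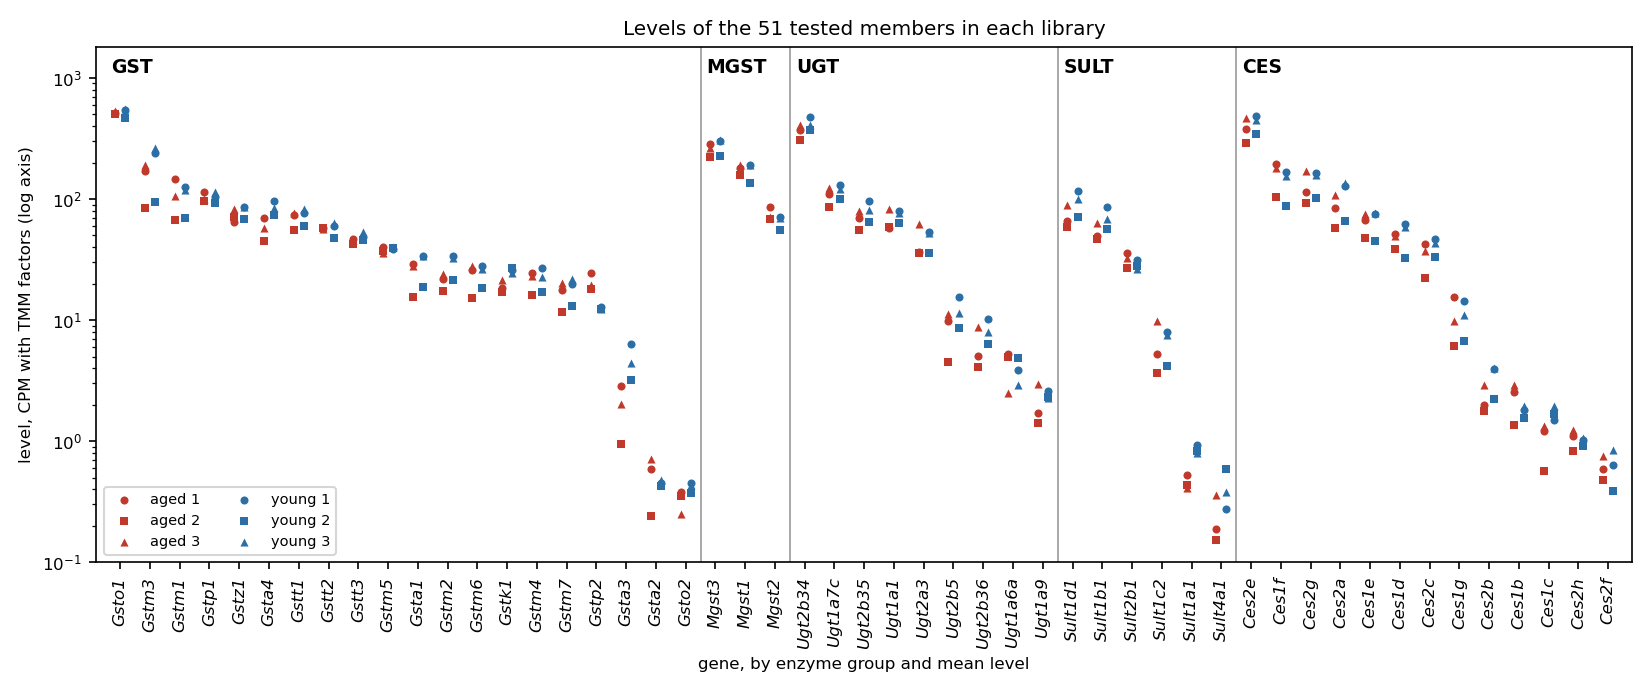
Level of each of the 51 tested genes in each library, in CPM with TMM factors on a log axis, by enzyme group and mean level. Aged libraries (red) stand left of young libraries (blue), and each point is 1 library. Most genes lie between 1 and 600 CPM, and squares, which mark replicate 2 of each age, are often the lowest of their group.

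Levels of different genes were compared per kilobase of merged exons. On that scale Gsto1, an omega-class enzyme with thioltransferase and dehydroascorbate reductase activity, was the most abundant, at a mean of 256 CPM per kb over the 6 libraries. Mgst3, a membrane enzyme with glutathione peroxidase activity, followed at 245 CPM per kb and the carboxylesterase gene Ces2e at 149 CPM per kb. The least abundant tested gene was Ces2f, at 0.125 CPM per kb. Library differences within a gene were of similar size for neighbours in this order: Gsto1 differed 1.19-fold between its highest and lowest library and Mgst3 1.38-fold, so their order was not clear of the spread. Gsto1 alone took 13.7% of all counts of the 81 IDs, Ces2e 10.7% and Ugt2b34 10.4%.

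Of the 51 tested genes, 1 passed the test in aged libraries, the pi-class gene Gstp2, and it was higher. Over all genes tested, 0.623% were called higher and 0.784% lower, 1.41% in all. None of the 51 was called lower by edgeR's quasi-likelihood test. At an unadjusted p below 0.05, 1 was higher and 7 were lower, and over all genes 3.9% were higher and 5.33% lower at that limit. DESeq2 called 1 of the 51 higher, Gstp2 again, and 3 lower, Gsta3, Gsta4 and Gstk1, where it called 1.38% of all genes higher and 1.85% lower. In 1 gene (Gstp2) every aged library stood above every young library, and in 5 genes every aged library stood below. Over all genes these shares were 6.3% above and 7.49% below, against 1.96% above and 9.8% below among the 51. The share below was thus close to that of all genes, and the share above was smaller and rested on 1 gene. The direction was less even: 40 of 51 log2 fold changes were below 0 (78.4%), against 48.2% of all genes, and their median was -0.14.

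The size of that median depended on single libraries. Without aged library 2 it was -0.03, without young library 2 it was -0.28, and without both it was -0.15. Aged library 2 was the lowest aged library in 44 of the 51 genes (86.3%), against 29% of all genes. Young library 2 was the lowest young library in 43 of the 51 (84.3%), against 40% of all genes. Relative to each gene's own mean over the 6 libraries, the median log2 level of the 51 genes was -0.02, -0.45 and 0.10 in aged libraries and 0.23, -0.23 and 0.17 in young libraries. The difference between library 2 and the other libraries of its age was thus larger than the difference between ages.

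**Figure D2:**
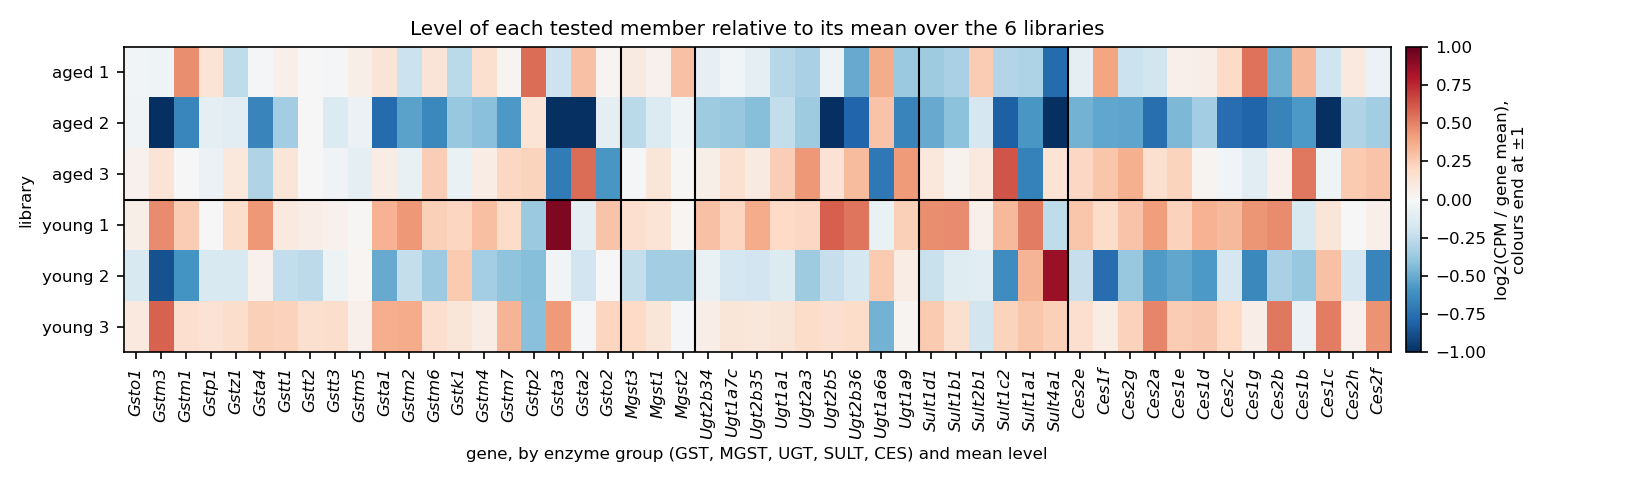
Log2 of the level of each tested gene over its mean in the 6 libraries (colour, ending at 1 in either direction), with libraries in rows (aged above young) and genes in columns by enzyme group. The rows of aged library 2 and young library 2 are mostly blue in all 5 groups, with medians over the genes of -0.45 and -0.23, and Gstp2 is red in all aged and blue in all young libraries.

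Gstp2 encodes a pi-class glutathione S-transferase and lies next to its near-identical neighbour Gstp1 on the minus strand of chromosome 19 (GRCm38, Gstp2 at chr19:4040285-4046023 and Gstp1 at chr19:4035407-4037985, GENCODE M21). Both coding sequences have 630 bases, of which 618 are identical (98.1%). The 12 differing bases change 6 of 210 residues. The sequences matter here because the 2 genes can be counted apart only by reads that cover a difference, in the coding part or outside it. The longest identical coding run is 300 bases, and the median insert was 155 bases per the labels. The stretch with the densest differences is the first 60 coding bases, given 5′ to 3′ from the GENCODE M21 transcripts, with the 6 differing bases in capitals.
Gstp2: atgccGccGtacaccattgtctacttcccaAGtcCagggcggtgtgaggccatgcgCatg
Gstp1: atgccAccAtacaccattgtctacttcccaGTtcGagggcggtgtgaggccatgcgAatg

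Gstp2 stood at 24.4, 18.2 and 19.3 CPM in aged libraries and at 12.8, 12.4 and 12.4 CPM in young libraries. All aged libraries were above all young ones, and aged library 1 was the highest. Gstp2 rose 1.65-fold (log2 fold change 0.72 ± 0.13 SE, adjusted p = 0.0279, edgeR's quasi-likelihood test). Gstp1 stood at 114, 97.2 and 99.4 CPM in aged libraries and at 103, 93.1 and 115 CPM in young libraries. Its groups overlapped, and its log2 fold change was -0.00 ± 0.10 (SE, adjusted p = 0.995, edgeR). Gstp2 made up 17.7, 15.8 and 16.3% of the counts of the pair in aged libraries and 11.03, 11.7 and 9.78% in young libraries, and the exact 95% intervals of the aged and young libraries did not touch (lowest aged bound 14.8%, highest young bound 12.6%). Those intervals cover counting error only. The mean share was 16.6 ± 0.985% in aged and 10.8 ± 0.990% in young libraries (SD, n = 3 each, two-sided exact permutation p = 0.1, the smallest that 3 against 3 allows).

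The call of Gstp2 was kept without aged library 3 (edgeR adjusted p = 0.0382) and lost when any other single library was left out (up to 0.106), while the log2 fold change stayed between 0.58 and 0.80. Over all alternatives for Gstp2 itself the adjusted p ran between 3.74e-05, with DESeq2, and 0.106. Added together, Gstp1 and Gstp2 stood at 138, 115 and 119 CPM in aged and 116, 105 and 127 CPM in young libraries, and the ages overlapped. The sum had a log2 fold change of 0.09 (adjusted p = 0.874, edgeR's quasi-likelihood test). The sum does not depend on how reads were divided between the 2 copies. Gstp2 is the smaller part of the pair, so a rise in Gstp2 alone moves the sum little. The sum therefore cannot tell a rise of Gstp2 from a different division of reads. Whether reads were assigned to the right copy was not tested. Another pi-class gene, listed under the symbol BC021614 and named Gstp3 in the reference annotation, did not match the choice by symbol. It is 73.8% identical to Gstp2 in coding sequence and averaged 14.5 ± 1.76 CPM in aged and 15.4 ± 3.53 CPM in young libraries (SD, n = 3 each). Its log2 fold change was -0.08 ± 0.17 (SE), with an edgeR adjusted p of 0.950.

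**Figure D3:**
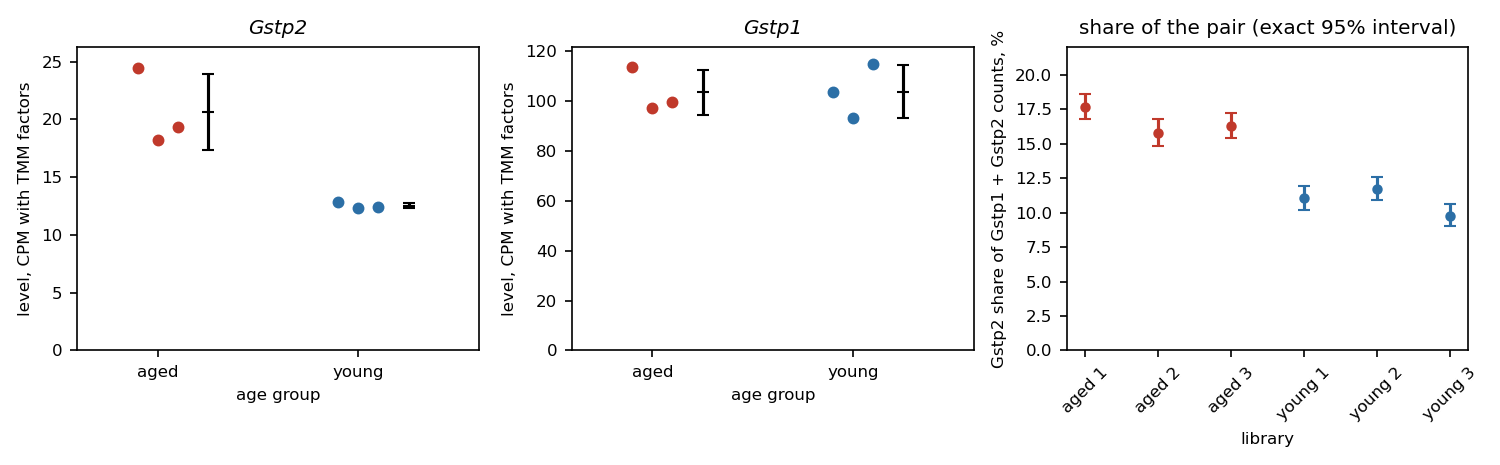
Levels of Gstp2 (left) and Gstp1 (middle) in CPM with TMM factors, with 1 point per library and the mean ± SD beside them, and the share of Gstp2 in the counts of both genes with exact 95% intervals (right). Gstp2 lies at 18.2 to 24.4 CPM in aged and 12.4 to 12.8 CPM in young libraries, Gstp1 overlaps between ages, and the share is above 15% in aged and below 12% in young libraries.

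The bases before the RefSeq start sites of both genes are shown because the copies, alike in coding sequence, differed in the comparison of ages. The 300-base windows of Gstp1 and Gstp2 around these start sites are identical at 243 aligned bases (81%). Both start sites lie inside the GENCODE M21 spans given above. All Gstp2 bases printed below lie within its span, and so do the last Gstp1 bases, with the matches nearest its start. Which start site is used in these cells was not tested. The last 130 bases before each start are printed 5′ to 3′ on the minus strand, from RefSeq on GRCm38.p6, Gstp2 at chr19:4042222-4042351 and Gstp1 at chr19:4037913-4038042. Capitals mark TGAGTCA, the sequence bound by AP-1, which here lies within TGAGNNNGC, a core of the antioxidant response element bound by NFE2L2, and a further match to that core on the other strand.
Gstp2: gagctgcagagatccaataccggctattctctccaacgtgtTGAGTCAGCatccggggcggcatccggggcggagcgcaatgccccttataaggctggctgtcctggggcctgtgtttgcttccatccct
Gstp1: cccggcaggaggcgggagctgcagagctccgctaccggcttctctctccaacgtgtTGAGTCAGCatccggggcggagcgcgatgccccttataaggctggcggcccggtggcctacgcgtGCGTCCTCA

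Both copies hold the combined match, which begins at base -89 in Gstp2 and at base -74 in Gstp1, counted from the start site. Gstp1 alone holds the reverse-strand match at bases -9 to -1 and the AHR core GCGTG at bases -13 to -9. Searched on both strands, TGAGTCA was found in 5.2% and TGAGNNNGC in 17.6% of all 32851 RefSeq promoter windows of the same length, and GCGTG in 32.4%. Promoter entries were found for 45 of the 51 tested genes. Of their 57 entries, 10.5% held TGAGTCA, 19.3% held TGAGNNNGC, 7.02% held TGACNNNGC (12.4% of all windows) and 21.1% held GCGTG. A match describes letters and says nothing of binding.

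Among the alpha-class genes, Gsta4, whose enzyme conjugates hydroxynonenal from lipid peroxidation, stood at 69.9, 44.9 and 57.7 CPM in aged and 96.0, 73.1 and 83.9 CPM in young libraries. Every aged library was below every young one, with a log2 fold change of -0.55 ± 0.16 (SE). Its adjusted p was 0.208 with edgeR's quasi-likelihood test and between 0.0291, with DESeq2, and 0.570 over the alternatives. Gsta3, known in mice for conjugating the aflatoxin epoxide, was low, at 2.85, 0.943 and 2.03 CPM in aged and 6.30, 3.23 and 4.42 CPM in young libraries. Its groups did not overlap either, and with a 6.68-fold range over the libraries it was the most variable of the 51 genes. The log2 fold change was -1.25 ± 0.39 (SE), with an adjusted p of 0.248 in edgeR and between 0.0217, with DESeq2, and 0.669 over the alternatives. Gsta1 and Gsta2 are 97.6% identical in coding sequence, so their division is uncertain. Their log2 fold changes were -0.25 and 0.20.

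Gstk1, the kappa-class enzyme of mitochondria and peroxisomes, stood at 18.5, 17.2 and 21.3 CPM in aged and 26.0, 26.9 and 24.3 CPM in young libraries. All aged libraries lay below the young ones, and unlike most of the 51 genes its highest young value was in young library 2. The log2 fold change was -0.43 ± 0.11 (SE), with an adjusted p of 0.106 in edgeR and 0.0117 in DESeq2. Without aged library 3 the edgeR value was 0.0489, without a filter on low counts it was 0.0400, and the highest value over the alternatives was 0.362. Of 16 alternatives, 4 called Gstk1 lower.

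The mu-class genes lie together on chromosome 3, and all 7 were detected. Gstm3 and Gstm1, the most abundant, differed more between libraries of 1 age than between ages. Gstm3 stood at 169, 84.4 and 191 CPM in aged and 241, 95.2 and 262 CPM in young libraries, and Gstm1 at 145, 67.0 and 106 CPM in aged and 126, 69.6 and 119 CPM in young libraries. Both were lowest in library 2 of each age and overlapped between ages. The log2 fold changes were -0.43 ± 0.47 for Gstm3 and 0.02 ± 0.33 for Gstm1 (SE), with adjusted p-values of 0.885 and 0.995 in edgeR. Their neighbour Gstm5 did not share this: it differed 1.11-fold over the 6 libraries, the smallest range of the 51 genes, against 3.11-fold for Gstm3. No mu-class gene was called.

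Gsto1 was also steady, at 510, 506 and 534 CPM in aged and 540, 466 and 554 CPM in young libraries (log2 fold change -0.01 ± 0.08 SE, adjusted p = 0.991, edgeR). The theta-class genes Gstt1, Gstt2 and Gstt3 had log2 fold changes of -0.08, 0.00 and -0.12. Gstz1, the maleylacetoacetate isomerase of tyrosine breakdown, had -0.16. In sum the GST genes stood at 1455, 1176 and 1453 CPM in aged and 1604, 1189 and 1641 CPM in young libraries. The groups overlapped, with a log2 ratio of mean sums of -0.12 (two-sided exact permutation p = 0.5).

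The 3 microsomal glutathione S-transferase genes were all abundant. Mgst3 stood at 286, 223 and 265 CPM in aged and 302, 228 and 309 CPM in young libraries. Mgst1, found in the endoplasmic reticulum and the outer mitochondrial membrane, stood at 179, 158 and 189 CPM in aged and 192, 137 and 190 CPM in young libraries. Mgst2, which also makes cysteinyl leukotrienes, stood at 86.2, 68.5 and 71.0 CPM in aged and 71.5, 55.3 and 69.7 CPM in young libraries. In all 3 the ages overlapped and library 2 was the lowest of its age. Their log2 fold changes were -0.12 ± 0.13, 0.02 ± 0.13 and 0.20 ± 0.12 (SE), and their adjusted p-values with edgeR's quasi-likelihood test were 0.884, 0.983 and 0.735. The summed level was 551, 450 and 525 CPM in aged and 565, 420 and 568 CPM in young libraries (log2 ratio -0.03, two-sided exact permutation p = 0.8), and its sign turned when aged library 2 was left out (0.05).

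Of the 9 tested UGT genes, none was called, and 8 had log2 fold changes below 0, with a median of -0.22. Ugt2b34, the most abundant, stood at 369, 305 and 407 CPM in aged and 478, 372 and 409 CPM in young libraries. Ugt2b35 stood at 69.7, 55.4 and 79.1 CPM in aged and 96.3, 65.0 and 80.6 CPM in young libraries. In both genes the ages overlapped, with the highest value in young library 1 and the lowest in aged library 2. The log2 fold changes were -0.22 ± 0.12 for Ugt2b34 and -0.24 ± 0.16 for Ugt2b35 (SE), with adjusted p-values of 0.699 and 0.787 in edgeR. All 5 tested genes of the Ugt2 cluster were below 0, with a median of -0.24, and the lowest was Ugt2b5 at -0.47 ± 0.34 (SE). Ugt2b5 and Ugt2b38 are 97% identical in coding sequence, so their division is uncertain.

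The Ugt1a genes share their later exons and differ in the first, so where shared reads were dropped their counts come from the bases each has alone, which are 913 of 2224 bases in Ugt1a1 and 1915 of 4219 in Ugt1a7c. Ugt1a1, the enzyme that conjugates bilirubin, stood at 57.4, 59.1 and 82.7 CPM in aged and 80.1, 63.5 and 76.6 CPM in young libraries. Ugt1a7c stood at 110, 86.0 and 124 CPM in aged and 130, 99.7 and 121 CPM in young libraries. The ages overlapped in both. Per kilobase of their own bases Ugt1a1 reached 76.6 and Ugt1a7c 58.4 CPM over the 6 libraries. The log2 fold changes were -0.14 ± 0.15 for Ugt1a1 and -0.13 ± 0.14 for Ugt1a7c (SE), with adjusted p-values of 0.877 and 0.881 in edgeR. In the reference annotation a Ugt1a7c model also contains the first coding exon of Ugt1a6a, so the level of Ugt1a6a cannot be read. Summed UGT levels were 665, 557 and 781 CPM in aged and 870, 658 and 765 CPM in young libraries, with a log2 ratio of -0.19 (two-sided exact permutation p = 0.5).

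The sulfotransferases had the lowest median of the 5 groups, -0.42 over 6 genes, and none was called. That value leaned on genes below 1 CPM. With 1 CPM in 3 libraries as the filter, the median was -0.24 over 4 SULT genes, beside -0.23 for UGT. Sult1d1, which sulfates catecholamines in mice, stood at 65.2, 58.8 and 89.8 CPM in aged and 115, 71.5 and 100 CPM in young libraries. Sult1b1, which sulfates thyroid hormones and phenols, stood at 49.2, 46.5 and 63.1 CPM in aged and 85.4, 56.7 and 68.9 CPM in young libraries. Both overlapped between ages only through aged library 3 and young library 2. Sult1d1 had a log2 fold change of -0.42 ± 0.21 and Sult1b1 of -0.41 ± 0.16 (SE), with adjusted p-values of 0.636 and 0.451 in edgeR. Sult1a1, the phenol sulfotransferase, was near the detection limit at 0.528, 0.438 and 0.410 CPM in aged and 0.932, 0.828 and 0.792 CPM in young libraries. Its ages did not overlap, and the log2 fold change was -0.89 ± 0.27 (SE), with an adjusted p of 0.218 in edgeR, and it overlaps the gene Sgf29, whose reads could not be told apart from its own without strand.

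Sult2b1, the cholesterol sulfotransferase, stood at 36.1, 27.0 and 32.4 CPM in aged and 31.3, 28.1 and 26.6 CPM in young libraries. It was the only tested SULT gene with a log2 fold change above 0, at 0.15 ± 0.12 (SE, adjusted p = 0.824, edgeR). Sult1c2 stood at 5.24, 3.64 and 9.87 CPM in aged and 8.03, 4.16 and 7.46 CPM in young libraries, with both extremes in aged libraries. The log2 fold change was -0.06 ± 0.39 (SE), with an adjusted p of 0.986 in edgeR. Summed SULT levels were 157, 137 and 196 CPM in aged and 241, 162 and 205 CPM in young libraries (log2 ratio -0.31, two-sided exact permutation p = 0.2).

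**Figure D4:**
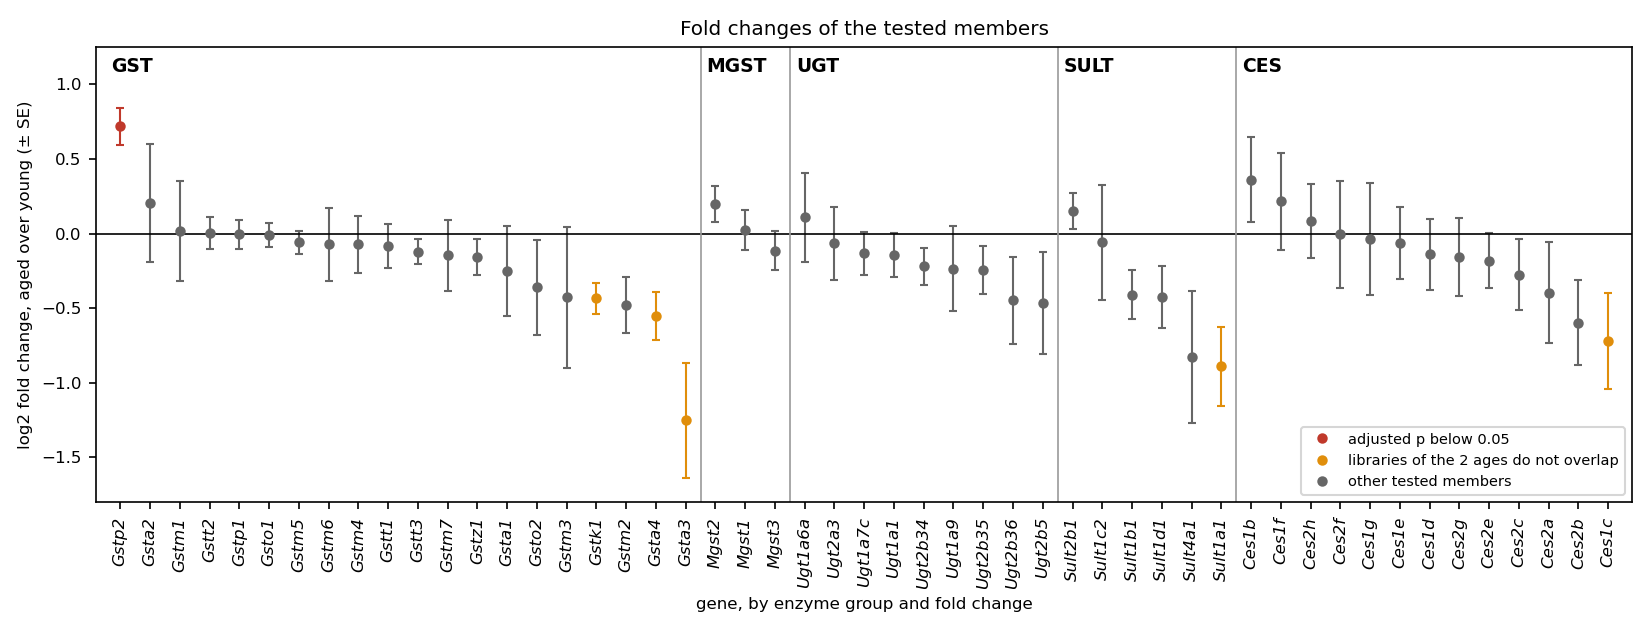
Log2 fold change, aged over young, ± SE from edgeR for each of the 51 tested genes, by enzyme group and fold change. Gstp2 (red) is the only gene with an adjusted p below 0.05, 5 genes (orange) have all aged libraries below all young ones, and 40 of the 51 points lie below 0.

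The carboxylesterases fall into a Ces1 and a Ces2 cluster, both on chromosome 8, and 13 of 15 genes were detected. Ces2 enzymes are the main esterases of the small intestine and cleave several prodrugs. Ces2e stood at 377, 289 and 464 CPM in aged and 487, 343 and 452 CPM in young libraries. Ces2g stood at 115, 92.6 and 170 CPM in aged and 163, 102 and 156 CPM in young libraries, and Ces2a at 84.9, 57.2 and 108 CPM in aged and 129, 65.3 and 135 CPM in young libraries. All 3 overlapped between ages and were lowest in library 2 of each age. Their log2 fold changes were -0.18 ± 0.19, -0.16 ± 0.26 and -0.40 ± 0.34 (SE), with adjusted p-values of 0.874, 0.932 and 0.841 in edgeR. Over the 7 Ces2 genes the median was -0.18.

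Ces1f stood at 195, 103 and 180 CPM in aged and 168, 87.5 and 156 CPM in young libraries. It was again lowest in library 2 of each age, but its log2 fold change was above 0, at 0.22 ± 0.32 (SE, adjusted p = 0.924, edgeR). Ces1c, a secreted esterase of mouse plasma, was near 1 CPM, at 1.20, 0.570 and 1.34 CPM in aged and 1.501, 1.69 and 1.97 CPM in young libraries. Its ages did not overlap, and the log2 fold change was -0.72 ± 0.32 (SE), with an adjusted p of 0.540 in edgeR. Ces1a and Ces1h had 2 counts each over all libraries. Summed CES levels were 954, 661 and 1103 CPM in aged and 1154, 723 and 1099 CPM in young libraries, with a log2 ratio of -0.13 (two-sided exact permutation p = 0.6), which was 0.05 without aged library 2.

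The calls among the 51 genes changed with the libraries fitted. Leaving out young library 2 and aged library 3, so that 2 libraries of each age remained, gave 11 genes called lower with edgeR: Ces2b, Ces2g, Gstk1, Gstm2, Gstz1, Sult1b1, Sult1c2, Sult1d1, Ugt1a1, Ugt2a3 and Ugt2b36. In that fit 3.92% of all genes were called lower and 3.97% higher, and the median over the 51 genes was -0.43. Gstp2 was higher there too (log2 fold change 0.75, adjusted p = 0.0190). Since young library 2 is the lowest young library in 43 of the 51 genes, its removal raises the young mean of those genes by construction. Aged library 3 is the highest aged library in 31 of the 51 genes and in all 11 of those called lower here, so its removal lowers their aged mean in the same way. The pair of libraries was chosen with earlier results of these data known. Leaving out young library 2 and aged library 2 gave no call among the 51 genes with edgeR, where 0.14% of all genes were called higher and 0.18% lower.

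Genes that serve the same reactions were read from lists chosen with earlier results known. Of 13 genes of glutathione supply and turnover, 1 rose and none fell, with a median of 0.10. That gene was Gsr, glutathione reductase, which regenerates glutathione from its disulfide, at 222, 230 and 201 CPM in aged and 153, 160 and 161 CPM in young libraries. The ages were well apart, and the log2 fold change was 0.46 ± 0.07 (SE), with an adjusted p of 0.0179 in edgeR, the adjusted p reached 0.107 when 1 library was left out, and it lay between 1.3e-05 and 0.132 over all alternatives. None of 7 genes of UDP-glucuronate supply was called (median 0.07), among them Ugdh, which makes the donor, at 134 ± 20.5 CPM in aged and 110 ± 16.9 CPM in young libraries (SD, n = 3 each). None of 6 genes of PAPS supply was called (median -0.03), and PAPS synthase Papss2 averaged 458 ± 98.5 CPM in aged and 467 ± 90.1 CPM in young libraries. The 2 most abundant genes of these lists after those were Pgm1, at 116 ± 4.61 CPM in aged and 121 ± 8.50 CPM in young libraries, and Bpnt1, at 401 ± 24.9 CPM in aged and 410 ± 23.3 CPM in young libraries.

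None of 10 efflux pump genes was called, and 9 of them were below 0, with a median of -0.18. Abcc3 averaged 217 ± 46.8 CPM in aged and 222 ± 45.4 CPM in young libraries, and Abcc2, which exports conjugates into the gut lumen, averaged 88.2 ± 29.3 CPM in aged and 113 ± 27.4 CPM in young libraries (SD, n = 3 each). Of 13 other transferases and hydrolases none was called (median -0.10). Ephx2, a soluble epoxide hydrolase, averaged 132 ± 21.4 CPM in aged and 145 ± 24.8 CPM in young libraries (SD, n = 3 each).

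None of 13 transcription factors and partners that regulate these genes was called (median 0.02). Hnf4a averaged 1679 ± 98.8 CPM in aged and 1598 ± 112 CPM in young libraries, and Gata4 averaged 358 ± 10.8 CPM in aged and 342 ± 14.4 CPM in young libraries (SD, n = 3 each). Of 14 target genes of NFE2L2, the factor of the antioxidant response, 1 rose, again Gsr, and the median was 0.07. Of 7 AHR target genes listed, 3 were tested and none of them was called (median 0.05). Nqo1 averaged 45.9 ± 8.08 CPM in aged and 44.2 ± 6.34 CPM in young libraries, and Tiparp 36.3 ± 0.895 CPM in aged and 36.4 ± 4.97 CPM in young libraries. None of 9 target genes of the drug receptors PXR and CAR was called, and all 9 were below 0, with a median of -0.45. The list holds Abcc2, given above, and Cyp3a13, which averaged 62.0 ± 11.6 CPM in aged and 78.1 ± 13.9 CPM in young libraries.

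**Figure D5:**
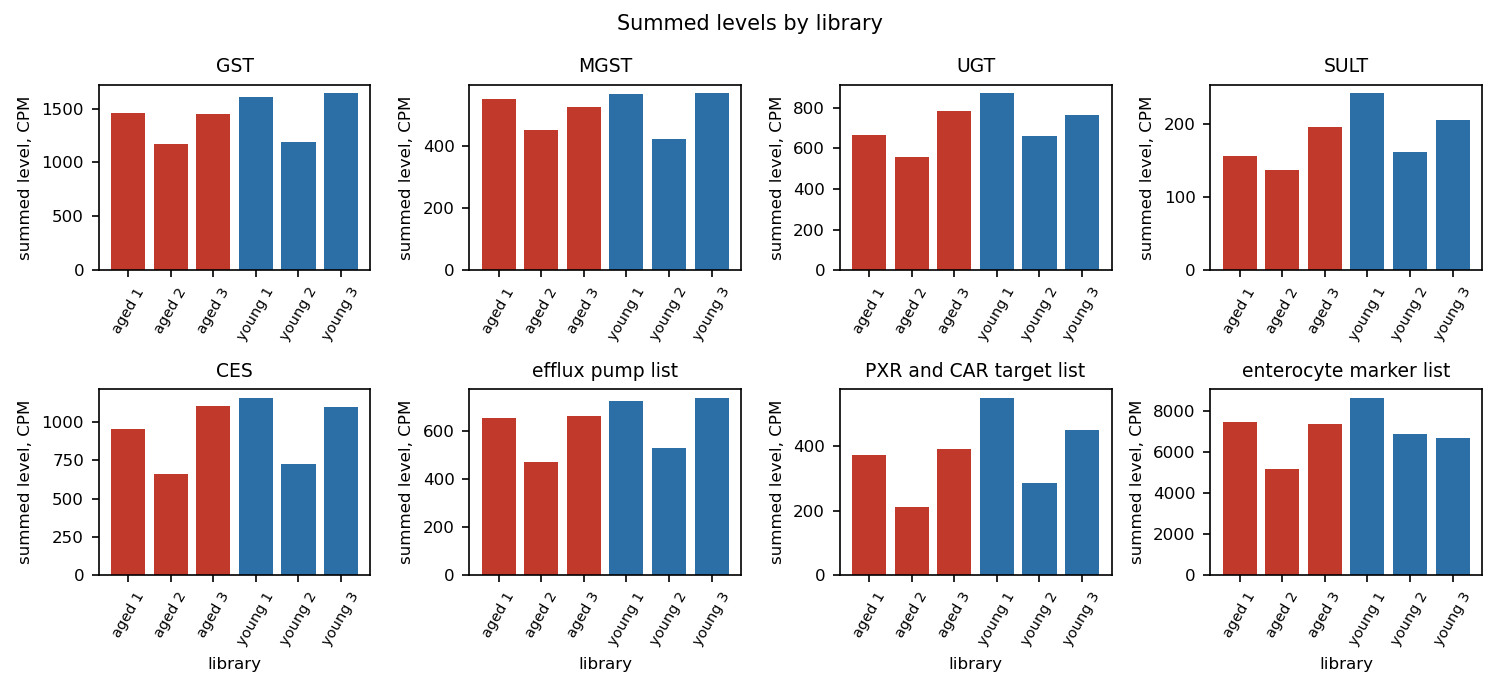
Summed level in CPM per library of the 5 enzyme groups, the efflux pumps, the PXR and CAR targets and the enterocyte markers, with aged libraries (red) left of young libraries (blue) and 1 bar per library. Library 2 has the lowest sum of its age in every panel except the enterocyte markers. There it has the lowest aged sum but not the lowest young one.

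The library pattern was shared by genes outside the 81. PXR and CAR targets summed to 372, 211 and 391 CPM in aged and 548, 286 and 451 CPM in young libraries, and the efflux pumps to 653, 473 and 664 CPM in aged and 726, 528 and 737 CPM in young libraries. In both lists library 2 was the lowest of its age. None of 16 absorptive enterocyte markers was called (median -0.13), and they summed to 7465, 5166 and 7371 CPM in aged and 8621, 6853 and 6667 CPM in young libraries. Single enterocyte markers differed in the order of the young libraries. Apoa4 stood at 745, 752 and 332 CPM there, lowest in library 3, and Sis at 913, 644 and 745 CPM, lowest in library 2. Goblet cell markers, of which 2 of 8 fell, summed to 15809, 16685 and 15057 CPM in aged and 17805, 27057 and 21230 CPM in young libraries. The sum was highest in library 2 of each age. Most of it was Fcgbp, which, like Clca1 and Muc2, was highest in library 2 of each age. Agr2 and Spink4 were highest in library 2 among aged libraries only, and Tff3 and Zg16 among young libraries only. Klk1 was highest in library 3 of each age. Proliferation genes, with 0 of 10 called, summed to 1907, 2281 and 2201 CPM in aged and 1957, 2202 and 1708 CPM in young libraries, again highest in library 2 of each age. The sum of the stem cell markers went the other way, lowest in library 2 of each age. It was 4901, 4611 and 5393 CPM in aged and 5697, 4602 and 5481 CPM in young libraries. Most of it was Olfm4, at 3849, 3624 and 4431 CPM in aged and 4652, 3711 and 4458 CPM in young libraries. In aged libraries Lgr5 and Rgmb were also lowest in library 2, but Ascl2 and Tnfrsf19 were highest there. Axin2, Smoc2 and Sox9 lay between. In young libraries all of these genes were lowest in library 2. The part of these lists in the levels of the 51 genes was not tested.

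Markers of other cell types and gut regions were read against the 1.41% of all genes called in either direction. Of 9 Paneth cell markers 2 fell and all 9 were below 0, with a median of -0.90. They summed to 7007, 6951 and 6495 CPM in aged and 11238, 8692 and 16053 CPM in young libraries, with no overlap. Of 7 duodenal markers 2 fell, with a median of -0.75, and of 10 enteroendocrine markers 3 fell, with a median of -0.27, and Gip is counted in both lists. The part of these markers in the levels of the 51 genes was not tested. Among the other lists, 0 of 6 ileal, 0 of 9 tuft, 0 of 8 villus tip, 0 of 7 villus base and 0 of 8 stem cell markers were called. Of 7 T lymphocyte markers 1 rose, and the list summed to 4.34 to 10.5 CPM in aged and 4.82 to 5.55 CPM in young libraries. Pancreatic acinar markers, a sign of tissue carried over, summed to 0.263 to 0.338 CPM in aged and 0.205 to 0.304 CPM in young libraries, with Prss2, Cela2a, Cpa1, Cpb1, Amy2a5 and Try4 at 0. Of 4 macrophage and dendritic cell markers 1 rose, and none of 2 B and plasma cell, 2 endothelial, 1 mast cell and 7 hepatocyte markers was called. The fibroblast and smooth muscle list summed to 0.127 to 0.374 CPM in aged and 0.338 to 0.696 CPM in young libraries, with no gene tested.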

How the data were processed

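The values are raw counts per gene, deposited by the authors as 1 table and not normalised. Per the submitters' processing notes the build is GRCm38 and the tools named include STAR, HISAT2 2.1.0 and featureCounts 1.6.4. Which annotation release and strand setting were used is not given in the sources used here, and counts of overlapping or near-identical genes are uncertain. Poly(A) RNA was made into stranded libraries, per the labels. Positions and exon lengths are from GENCODE M21.

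Genes were kept by filterByExpr of edgeR 4.0.16 (minimum count 10, R 4.3.3) and tested with robust quasi-likelihood and TMM factors, with age as the only term. P-values were Benjamini-Hochberg adjusted over 14923 genes. The SE is the log2 fold change over the root of F. The code was tested on simulated data. Sequences were aligned with Biopython 1.88.

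The members, lists and alternatives were chosen with earlier results of these data known. Genes named were those called, those with separated ages and the 4 most abundant per group, and in the other lists those called or the 2 most abundant, of which 1 gene is not reported here. Ugt2b38, single genes of the marker lists and the other genes given by range or in passing were named after their values were seen. Replicates were numbered in record order. No 2 libraries of a group agreed within sampling noise (smallest chi-square per gene 27.2).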

Additional observations from a re-analysis of the deposited data

How the results depend on the processing

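Over all genes, the counts higher and lower were 206 and 276 with DESeq2 1.42.0, 168 and 245 without a filter, 594 and 587 without young 2 and aged 3, and 21 and 27 without young 2 and aged 2, a pair chosen after seeing the data. With 1 CPM in 3 libraries as the filter, 67 were lower. Leaving out 1 library gave 35 to 135 higher and 30 to 135 lower. Among the 51 genes, 3 were lower with DESeq2, 1 without a filter and 11 without young 2 and aged 3; 0 were higher without young 2 and aged 2 and with Gstp1 and Gstp2 summed; leaving out 1 library gave 0 to 1 in either direction. Medians without young 2 and aged 3 were -0.43 for all 51, -0.51 for UGT and -0.81 for SULT, and with 1 library left out they lay between -0.28 and -0.027, between -0.37 and -0.072 and between -0.59 and -0.26. Leaving out 1 library moved the MGST sum between -0.16 and 0.050 and the CES sum between -0.32 and 0.046, as log2 ratios, and the cause was not tested. Genes whose log2 fold change turned sign were Gstm1 (-0.27 to 0.26), Gsto1 (-0.09 to 0.039), Gstp1 (-0.084 to 0.073), Mgst1 (-0.13 to 0.11), Sult1c2 (-0.56 to 0.21), Ces1f (-0.03 to 0.44) and Ces2g (-0.44 to 0.016); without young 2 and aged 3, Ces1f was -0.13, Ces2g -0.63, Gsto1 -0.11, Gstm1 -0.21 and Mgst1 -0.18, and Mgst1 was -0.06 without young 2 and aged 2. No paired analysis was made, because the labels give no replicate numbers. Libraries with the same number in the 2 ages were not taken as pairs. Genes near 1 CPM, such as Ces1c, rest on few counts.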
